A study of Mus musculus with 7 samples.

Results

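The genes described here encode enzymes known or proposed to remove methyl groups from lysine 9 of histone H3 (H3K9). They were taken by symbol from a list of 10, Kdm1a, Kdm3a, Kdm3b, Jmjd1c, Kdm4a, Kdm4b, Kdm4c, Kdm7a, Phf2 and Phf8. Each was read from its probe set with 1 gene symbol and the highest mean over the arrays, and all 10 were found among the 22180 genes of the table. The rule itself uses no measured value, although the list was drawn up with earlier results of these data known.

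RNA came from C2C12, an established mouse cell line of myoblasts, the precursors of muscle fibres, kept dividing in 15% serum. Each sample was read on 1 whole transcript Affymetrix array. Cells of 3 samples had received an siRNA against G9a (siG9a), cells of 2 samples an siRNA against GLP (siGLP), and cells of 2 samples a control siRNA. G9a (gene Ehmt2) and GLP (gene Ehmt1) add methyl groups to H3K9, and the study compared what each of them does in myoblasts. All groups shared the medium and the transfection reagent, and the time from transfection to harvest is not stated in the labels. Whether replicates were separate cultures is not stated either, so the p-values rest on a spread that may be technical. Precision is limited by having 2 or 3 arrays in a group.

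H3K9 methylation marks silent chromatin, and it is removed by enzymes of separate chemistries. Kdm1a, also called LSD1, is a flavin-dependent oxidase that acts on lower methylation states. The others carry a JmjC domain, which uses iron, oxygen and 2-oxoglutarate. Within that class the KDM3 family acts on the lower methylation states of H3K9, the KDM4 family reaches the trimethylated state, and the KDM7 family couples a PHD finger, which binds methylated H3K4, to a JmjC domain. The enzymes therefore act on the same residue as G9a and GLP, in the opposite direction.

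The arrays were alike in their spread of signal, with a median over all probe sets between 4.54 and 4.59 (log2 signal) on the 7 arrays. Ehmt2 had a log2 signal of 6.31, 6.14 and 5.99 in siG9a, against 7.56 and 7.46 in control, and Ehmt1 had 5.73 and 6.13 in siGLP, against 6.71 and 6.73 in control. Ehmt2 passed in siG9a versus control (limma, Benjamini-Hochberg adjusted p = 0.0308), and Ehmt1 did not pass in siGLP versus control (limma adjusted p = 0.197). The Ehmt2 call was lost, as no gene passed in that comparison, with any 1 array left out (smallest adjusted p over all genes from 0.0787 to 0.426), with the replicate block (0.163), with only the 2 groups in the fit (0.13) or without variance moderation (0.068). All 9 myoblast markers examined lay above the array median on all arrays, as did 4 of 6 myotube markers, 1 of 4 leukocyte markers, 0 of 3 endothelial markers and 1 of 3 adipocyte markers. Mean log2 signal over the myoblast markers ranged from 8.43 to 8.55 in siG9a, from 8.48 to 8.55 in siGLP and from 8.67 to 8.73 in control. Its part in the results below was not tested. All 10 demethylase probe sets lay above the median on all arrays, and 8 of them above the upper quartile (6.85 to 6.90). The exceptions were Kdm4b and Kdm7a. Signals of different probe sets have different efficiencies and are not compared between genes below.

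The upstream sequences of the KDM7 genes and of Kdm3a are shown because these genes had the smallest unadjusted p-values among the members, apart from Phf2, which is given as the third KDM7 gene. RefSeq windows of 300 bases (250 before to 50 after the start, GRCm38.p6) were matched for 8 of the 10 members. Capitals mark the hypoxia response core (ACGTG or GCGTG, both strands).
Kdm7a, chr6:39206724-39207023, minus strand: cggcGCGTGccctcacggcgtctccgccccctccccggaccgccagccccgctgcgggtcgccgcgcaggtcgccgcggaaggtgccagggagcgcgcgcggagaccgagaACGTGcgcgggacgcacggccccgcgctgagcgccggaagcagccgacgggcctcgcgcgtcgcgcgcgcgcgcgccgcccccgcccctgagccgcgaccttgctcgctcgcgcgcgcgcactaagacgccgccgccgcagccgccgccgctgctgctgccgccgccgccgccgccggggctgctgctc
Phf8, chrX:151520422-151520721, plus strand: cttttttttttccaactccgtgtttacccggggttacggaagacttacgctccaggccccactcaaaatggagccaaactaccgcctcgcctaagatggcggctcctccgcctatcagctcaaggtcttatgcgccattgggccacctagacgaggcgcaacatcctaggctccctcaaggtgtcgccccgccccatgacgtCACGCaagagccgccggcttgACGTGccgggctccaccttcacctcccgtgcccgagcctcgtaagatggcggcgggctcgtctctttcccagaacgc
Phf2, chr13:48870836-48871135, minus strand: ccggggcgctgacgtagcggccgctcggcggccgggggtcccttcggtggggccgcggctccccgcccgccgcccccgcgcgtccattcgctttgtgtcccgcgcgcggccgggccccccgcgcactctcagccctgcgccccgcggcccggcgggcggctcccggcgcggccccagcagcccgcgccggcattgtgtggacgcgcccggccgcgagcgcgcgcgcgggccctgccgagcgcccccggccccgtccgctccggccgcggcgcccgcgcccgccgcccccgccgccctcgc
Kdm3a, chr6:71632868-71633167, minus strand: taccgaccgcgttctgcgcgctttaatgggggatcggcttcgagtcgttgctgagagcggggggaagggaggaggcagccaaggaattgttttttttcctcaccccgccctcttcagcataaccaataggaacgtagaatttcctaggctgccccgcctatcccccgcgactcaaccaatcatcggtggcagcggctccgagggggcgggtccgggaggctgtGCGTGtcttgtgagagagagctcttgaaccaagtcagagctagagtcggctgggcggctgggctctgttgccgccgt

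The windows of Kdm7a and Phf2 were very rich in CpG, with 65 and 63 CpG dinucleotides, against a median of 7 over 32851 windows of the same length. Only 3 windows in all held as many CpGs as Kdm7a and 10 held as many as Phf2, these genes' own included. Phf8 had 26 CpGs, and the Kdm3a window, the most upstream of 3 RefSeq starts, had 24. The hypoxia response core occurred 2 times in Kdm7a, 2 times in Phf8, 0 times in Phf2 and 1 time in the Kdm3a window, and 43.8% of all windows held at least 1. Members not shown also held it, with 3 matches in Kdm1a, 3 in the first Jmjd1c window and 6 in the second Kdm4c window. Kdm4a and the other windows of Jmjd1c and Kdm4c held 0. None of the 4 windows shown held an E box (CANNTG, the motif of MyoD and its relatives), which 72.3% of all windows hold. Among members not shown, Kdm1a, Kdm4a and the first Jmjd1c window held 0 E boxes as well. The second Jmjd1c window held 4, and the Kdm4c windows held 2 and 3. The other Kdm3a windows, not shown, differed from the Kdm3a window above: the next held 40 CpGs, 1 E box and 0 hypoxia cores, and the last held 0 of each. Phf8 held 1 cyclic AMP response element (TGACGTCA, found in 1.79% of windows), which overlaps 1 of its 2 hypoxia cores. These matches describe the letters of the windows and show no binding.

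The comparisons with control ask which demethylase transcripts stand at another level when G9a or GLP is depleted. No member passed the threshold, a limma p under 0.05 after Benjamini-Hochberg adjustment over all genes, in siG9a versus control (0 of 10, with 2 at an unadjusted p under 0.05). Over all genes 0.0271% passed in that comparison (0.00451% higher and 0.0225% lower), and 10.5% had an unadjusted p under 0.05 (5.95% higher and 4.57% lower). In siGLP versus control 0 of 10 members passed (limma), with 1 at an unadjusted p under 0.05. Over all genes 0.00451% passed there, all lower, and 8.63% had an unadjusted p under 0.05 (4.51% higher and 4.13% lower). With so few genes past the threshold, a count of 0 among 10 is near the background.

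**Figure D1:**
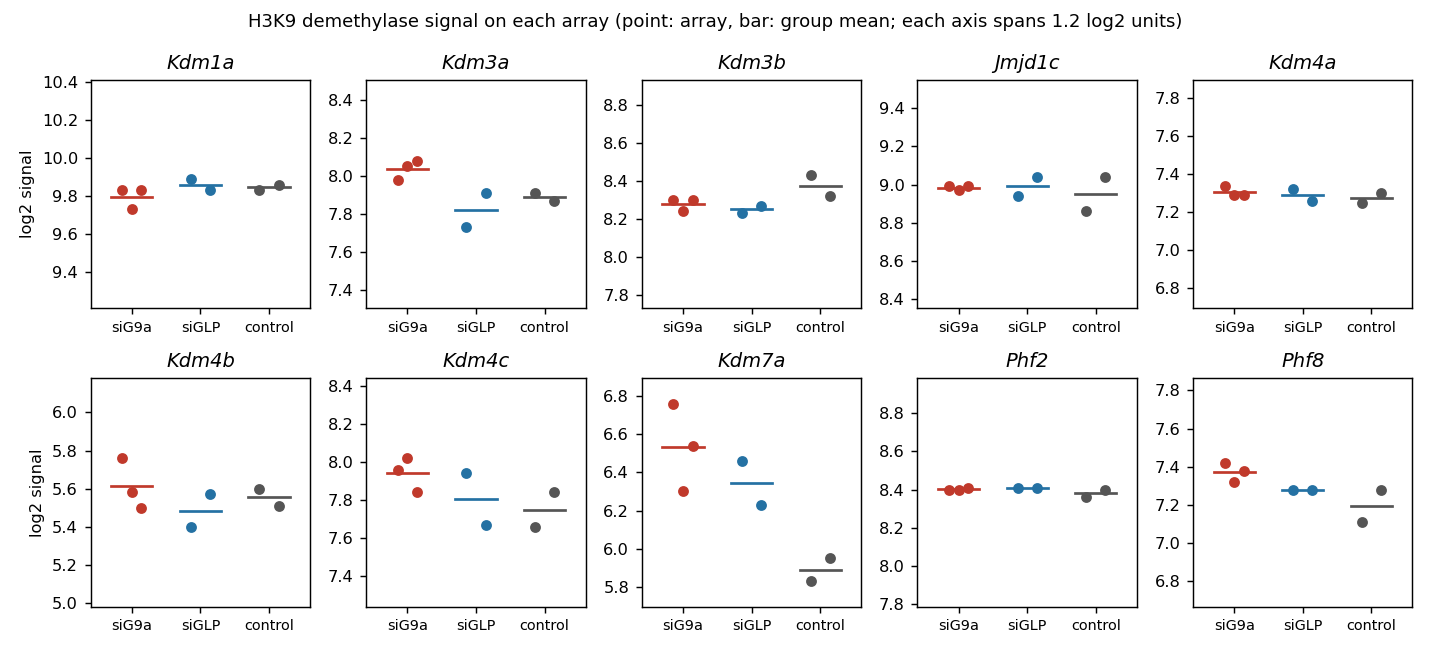
Log2 signal of the 10 H3K9 demethylases on each array, with arrays as points and group means as bars, for siG9a, siGLP and control. Each vertical axis spans 1.2 log2 units, and Kdm7a, from 5.83 to 6.76, has the widest range of the 10 probe sets.

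Kdm7a gave the clearest separation. It encodes a KDM7 enzyme that acts on the lower methylation states of H3K9 and of H3K27. Its log2 signal was 6.76, 6.30 and 6.54 on the siG9a arrays, 6.46 and 6.23 on the siGLP arrays, and 5.83 and 5.95 on the control arrays. Every array of either knockdown lay above both control arrays, while the siG9a and siGLP arrays overlapped. In siG9a versus control the log2 difference was 0.64 (SE 0.14, 95% interval 0.30 to 0.98), a 1.56-fold higher signal, and missed the threshold (limma, Benjamini-Hochberg adjusted p = 0.189). In siGLP versus control the log2 difference was 0.45 (SE 0.16, 95% interval 0.08 to 0.82), a 1.37-fold higher signal, which also did not pass (limma adjusted p = 0.475). Both comparisons share the control arrays, so they are not separate evidence. Directly, siGLP minus siG9a was -0.19 (95% interval -0.53 to 0.15; limma adjusted p = 0.64).

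Among all genes, a difference in the same direction of at least the size of Kdm7a was found for 61 genes (0.275%) in siG9a versus control and for 312 genes (1.41%) in siGLP versus control. Kdm7a ranked 335 of 22180 by p in siG9a and 1080 in siGLP. With any 1 array left out, the difference stayed between 0.53 and 0.76 in siG9a versus control and between 0.33 and 0.57 in siGLP versus control. In a bulk sample a higher signal in every cell and a larger share of cells with the transcript cannot be told apart. A leukocyte marker, the lysosomal protein gene Cd68, also stood higher with 7.82, 7.67 and 7.79 in siG9a, 7.83 and 7.54 in siGLP, and 7.06 and 7.22 in control. Ptprc, the defining leukocyte marker, was near the bottom of the scale on all arrays, with 2.84, 2.80 and 2.73 in siG9a, 2.93 and 2.85 in siGLP, and 2.80 on both control arrays, while the lower quartile of each array was 3.32 to 3.36. Mean log2 signal over the 4 leukocyte markers ranged from 4.56 to 4.6 in siG9a, from 4.53 to 4.62 in siGLP and from 4.29 to 4.48 in control, and its part in the Kdm7a result was not tested.

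**Figure D2:**
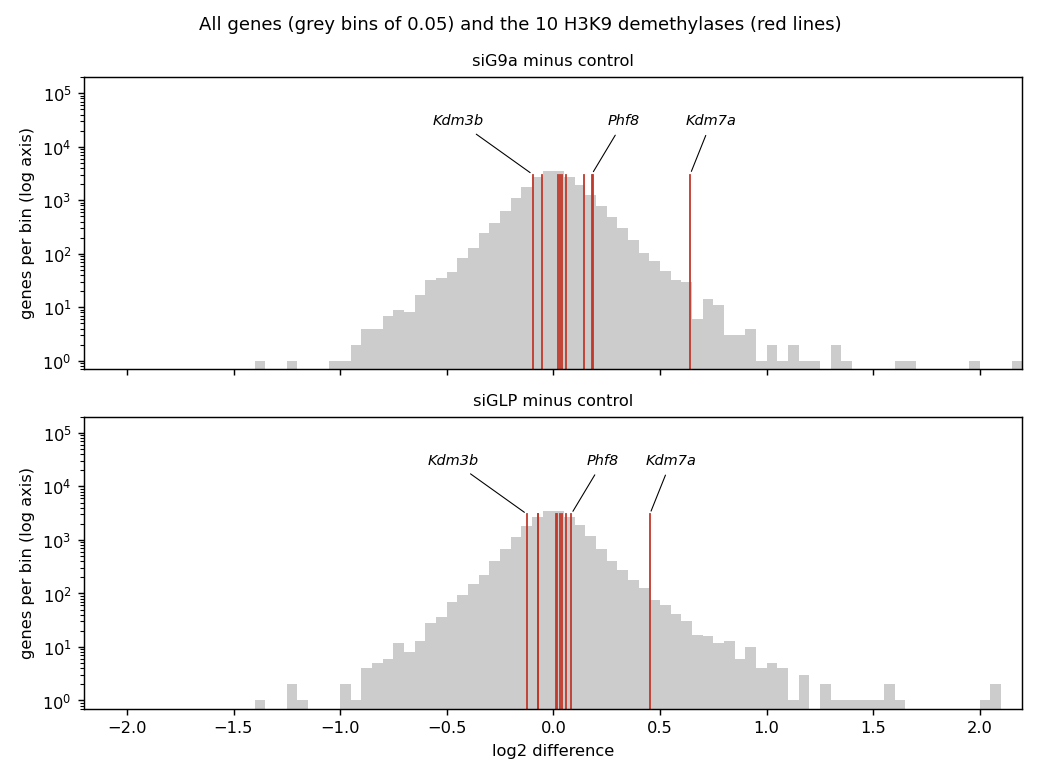
Histogram of the log2 difference from control over 22180 genes (grey bins of 0.05 log2 units, log count axis), for siG9a above and siGLP below, with the 10 H3K9 demethylases as red lines. Kdm7a, at 0.64 and 0.45, stands in the upper tail in both panels, and the other 9 members lie in the central mass.

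Phf8 is the KDM7 member encoded on the X chromosome, and its human counterpart is mutated in an inherited intellectual disability. Its log2 signal was 7.42, 7.32 and 7.38 in siG9a, 7.28 on both siGLP arrays, and 7.11 and 7.28 in control. The siG9a arrays lay above all others, and the siGLP arrays coincided with the higher control array. In siG9a versus control the log2 difference was 0.18 (SE 0.073, 95% interval 0.01 to 0.35; unadjusted p = 0.0439; limma adjusted p = 0.457), which did not pass. It was 0.10 without control 1, the lower control array, and 0.26 without control 2. In siGLP versus control the difference was 0.08 (95% interval -0.11 to 0.27; limma adjusted p = 0.834). The deposited value of Phf8 is identical to the last digit on 3 arrays, control 2 and both siGLP arrays. Such ties are common in the table, with 21.4% of all genes at the same value on 3 or more arrays, and among the members they occurred for Phf8 and Kdm1a, 2 of 10.

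Phf2, the third KDM7 gene, had the narrowest range of the 10 members. Its enzyme activity in other systems depends on phosphorylation and a partner protein. Its log2 signal was 8.40, 8.40 and 8.41 in siG9a, 8.41 on both siGLP arrays, and 8.36 and 8.40 in control. The siGLP arrays lay just above both control arrays, and the siG9a arrays overlapped them. The difference from control was 0.02 in siG9a (95% interval -0.11 to 0.16) and 0.03 in siGLP (95% interval -0.12 to 0.18). Kdm7a, Phf8 and Phf2 are all above control on average in both knockdowns, with a median log2 difference of 0.18 in siG9a and 0.083 in siGLP, against 0.0052 and 0.0015 over all genes. The KDM7 median is that of Phf8, since the family has 3 members here.

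The KDM3 genes did not share a direction. Kdm3a, which is induced by low oxygen in many cell types, had a log2 signal of 7.98, 8.05 and 8.08 in siG9a, 7.73 and 7.91 in siGLP, and 7.91 and 7.87 in control. The siG9a arrays lay above all others, while siGLP 1 lay below both control arrays and siGLP 2 was level with control 1. The difference from control was 0.14 in siG9a (SE 0.076, 95% interval -0.04 to 0.32; limma adjusted p = 0.581) and -0.07 in siGLP (SE 0.084, 95% interval -0.27 to 0.13; limma adjusted p = 0.876). Set directly against siG9a, siGLP was lower by 0.21 on the log2 scale (95% interval -0.39 to -0.03), with an unadjusted p of 0.0273 and no pass over all genes (limma adjusted p = 0.329). Without siGLP 1 this difference was -0.12, and without siGLP 2 it was -0.30.

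Kdm3b, a close relative of Kdm3a, was the 1 member below control without overlap in both knockdowns. Its log2 signal was 8.30, 8.24 and 8.30 in siG9a, 8.23 and 8.27 in siGLP, and 8.43 and 8.32 in control. The distance between the nearest arrays was small, and the difference was -0.09 in siG9a (95% interval -0.25 to 0.06; limma adjusted p = 0.655) and -0.12 in siGLP (95% interval -0.29 to 0.04; limma adjusted p = 0.724). Jmjd1c, the third KDM3 gene, whose activity on H3K9 is disputed, was at 8.99, 8.97 and 8.99 in siG9a, 8.94 and 9.04 in siGLP, and 8.86 and 9.04 in control. Here the control arrays lay outside the siG9a arrays on either side. Its difference was 0.04 in both comparisons, with 95% intervals of -0.14 to 0.22 in siG9a and -0.16 to 0.24 in siGLP.

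The 3 KDM4 members, whose enzymes remove methyl groups from trimethylated H3K9 and H3K36, overlapped between groups without exception. Kdm4c, which in mouse embryonic stem cells is linked to self-renewal, came closest to separating, with 7.96, 8.02 and 7.84 in siG9a, 7.94 and 7.67 in siGLP, and 7.66 and 7.84 in control. Its difference was 0.19 in siG9a (SE 0.11, 95% interval -0.07 to 0.44; limma adjusted p = 0.603) and 0.06 in siGLP (SE 0.12, 95% interval -0.22 to 0.34; limma adjusted p = 0.937). Kdm4a lay between 7.25 and 7.34 on all 7 arrays, at 0.03 from control in siG9a and 0.02 in siGLP. Kdm4b had 5.76, 5.58 and 5.50 in siG9a, 5.40 and 5.57 in siGLP, and 5.60 and 5.51 in control. Its differences of 0.06 in siG9a and -0.07 in siGLP had 95% intervals of -0.17 to 0.29 and -0.33 to 0.18. The median log2 difference of the 3 KDM4 genes was 0.061 in siG9a and 0.017 in siGLP.

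Kdm1a forms a complex with the CoREST corepressors and histone deacetylases, and it is known to promote the differentiation of C2C12 cells. Its log2 signal was 9.83, 9.73 and 9.83 in siG9a, 9.89 and 9.83 in siGLP, and 9.83 and 9.86 in control. All groups overlapped. The difference was -0.05 in siG9a (95% interval -0.20 to 0.10; limma adjusted p = 0.817) and 0.01 in siGLP (95% interval -0.16 to 0.18; limma adjusted p = 0.984).

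**Figure D3:**
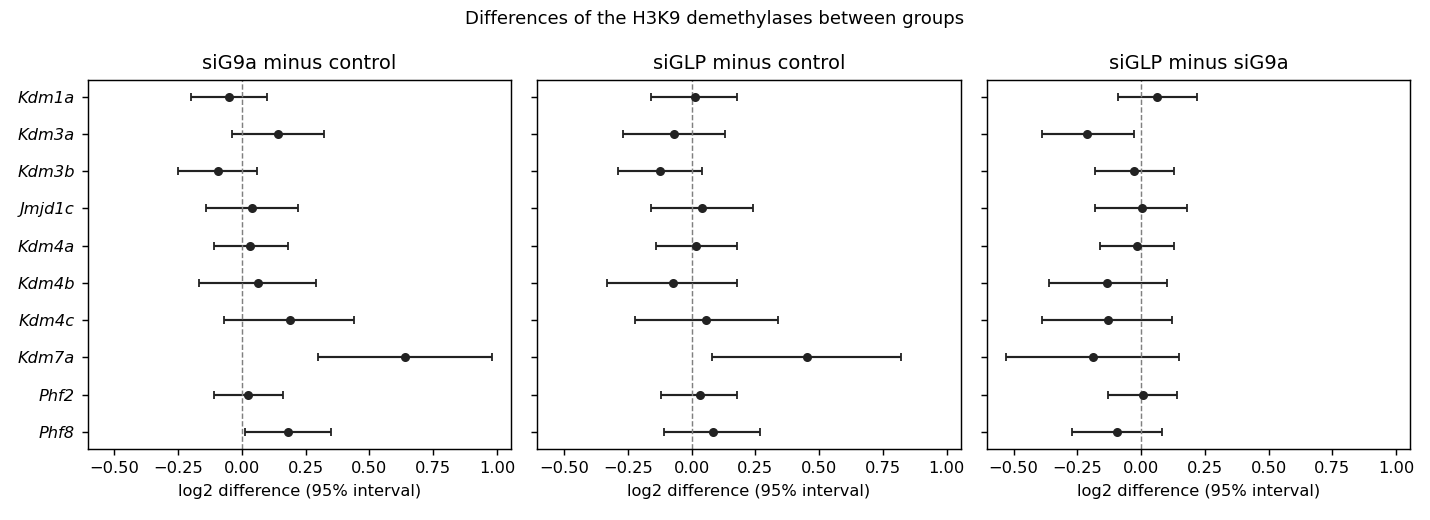
Log2 difference with its 95% interval (limma) for each of the 10 members, in panels for siG9a and siGLP against control and for siGLP against siG9a. From left to right the intervals hold 0 for 8, 9 and 9 of the 10 members, and those of Kdm7a in both comparisons with control lie above 0.

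As a list, 8 of 10 members lay above control in siG9a, where 51.9% of all genes did, and 7 of 10 in siGLP, where 50.6% did. The median log2 difference was 0.050 in siG9a and 0.025 in siGLP. Without Kdm7a the median over the other 9 was 0.040 in siG9a and 0.017 in siGLP, an addition made after its values were seen. The arrays of 4 members did not overlap those of control in siG9a, Kdm7a, Phf8 and Kdm3a above and Kdm3b below, against 25.7% of all genes (14% higher and 11.7% lower). In siGLP they were 3, Kdm7a and Phf2 above and Kdm3b below, against 34.2% of all genes (17.4% higher and 16.9% lower). These shares are near the background.

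The intervals give a range for each difference, 1 gene at a time. They rest on a spread that may be technical, so they do not bound a difference between separate cultures. For 9 of 10 members in siG9a, and 9 of 10 in siGLP, the 95% interval of the difference from control lay within 1.5-fold in either direction, and Kdm7a was the exception in both. In siGLP minus siG9a the intervals of all 10 members lay within 1.5-fold. That comparison asks whether the knockdowns leave the demethylases at different levels. Again 0 of 10 members passed (limma, Benjamini-Hochberg), with 1, Kdm3a, at an unadjusted p under 0.05, against 0.234% of all genes past the threshold (0.135% higher and 0.0992% lower) and 12.4% at an unadjusted p under 0.05 (5.87% higher and 6.57% lower). In siGLP 7 of the 10 members lay below and 3 above siG9a, where 48.6% of all genes lay above, with a median log2 difference of -0.062 against -0.0037 over all genes. Kdm3a and Phf8 were lower without overlap of arrays, 2 of 10, where 26.3% of all genes did not overlap (12.1% higher and 14.2% lower).

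Other histone demethylases act mostly on H3K4, H3K27 or H3K36. The list also holds Kdm4d and Hr, both reported to act on H3K9 but not among the 10 members. Kdm4d, of the KDM4 family, stood at 0.018 in siG9a and -0.051 in siGLP, and Hr at 0.099 and 0.002. Of 14 measured, 11 lay above control in siG9a and 8 in siGLP, where 51.9% and 50.6% of all genes did. The medians were 0.048 and 0.0097, and 0 passed in either comparison (1 at an unadjusted p under 0.05 in siG9a and 2 in siGLP; limma). Over all genes 0.0271% and 0.00451% passed, and 10.5% and 8.63% had an unadjusted limma p under 0.05. The smallest p-values in siG9a belonged to the H3K4 demethylase gene Kdm5a (0.31; limma adjusted p = 0.395), the H3K27 demethylase gene Kdm6b (-0.15) and the Kdm1a relative Kdm1b (0.10). In siGLP they belonged to Kdm6b (-0.32; limma adjusted p = 0.477), Kdm5d (0.23) and Kdm5a (0.13). The Kdm5d level, 2.85 in siGLP and 2.62 in control as group means, stood under each array's lower quartile, in the dimmest part of the scale.

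The methyltransferases work on the other side of the reaction. Of 10 H3K9 methyltransferase genes listed, 7 were measured, namely Ehmt1, Ehmt2, Setdb1, Setdb2, Prdm2, Mecom and Prdm16. Of these 7, 5 lay below control in siG9a and 6 in siGLP (medians -0.023 and -0.096), the targeted genes among them. Ehmt2 in siG9a was the 1 that passed. In siGLP the next after Ehmt1 were Mecom (-0.26) and Setdb1 (-0.10), neither of which passed. Of 14 partners of G9a and GLP and readers of H3K9 methylation, 10 lay below control in siG9a and 11 in siGLP (medians -0.073 and -0.050), and 0 passed in either (limma; 3 and 0 at an unadjusted p under 0.05). Beside both lists, 51.9% of all genes lay above control in siG9a and 50.6% in siGLP. An unadjusted limma p under 0.05 was found for 10.5% and 8.63% of all genes. Uhrf1, which recruits DNA methyltransferase, stood at -0.26, the HP1 gene Cbx3 at -0.19 and the corepressor gene Trim28 at -0.17 in siG9a, and the chromodomain gene Cdyl stood at -0.23, Chd4 at -0.16 and Cbx1 at -0.08 in siGLP.

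Kdm1a acts within larger complexes, and a list of its partners was examined beside it. The list mixes subunits of the complexes with other factors, such as Snai2 and Gfi1, so its counts are not counts of subunits. Of 22 partners measured, 17 were below in siG9a and 15 in siGLP, with medians of -0.079 and -0.049, and 0 passed (limma; 3 in each comparison at an unadjusted p under 0.05, all lower). Among all genes 51.9% lay above control in siG9a and 50.6% in siGLP. Lower at an unadjusted limma p under 0.05 were 4.57% and 4.13% of all genes. The smallest p in both comparisons belonged to the CoREST paralog gene Rcor2, at -0.46 in siG9a (SE 0.086; limma adjusted p = 0.15) and -0.28 in siGLP (SE 0.095; limma adjusted p = 0.473). The next in siG9a were the NuRD subunit genes Mta2 (-0.27) and Mta1 (-0.25), and in siGLP Rcor3 (-0.19) and the repressor gene Snai2 (-0.25). Rcor1, the founding CoREST gene, was at -0.01 in siG9a and -0.05 in siGLP.

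Since JmjC enzymes use 2-oxoglutarate and oxygen, genes of 2-oxoglutarate and its competitors and other enzymes of the class were examined too. The first list mixes 18 enzymes that make or use 2-oxoglutarate or its competitors, so its counts do not measure a supply. In siG9a 9 lay above and 9 below control (median 0.0087), and in siGLP 5 above and 13 below (median -0.032). In either comparison 0 passed (limma; 1 and 1 at an unadjusted p under 0.05). Psat1, an enzyme of serine synthesis that yields 2-oxoglutarate, stood at -0.21 in siG9a, with the isocitrate dehydrogenase gene Idh1 at 0.16 and Sdhd at 0.13. In siGLP the mitochondrial isocitrate dehydrogenase gene Idh2 stood at -0.21, the succinate dehydrogenase gene Sdha at -0.15 and Psat1 at -0.19. Of 16 other 2-oxoglutarate dioxygenases, 11 lay above control in siG9a and 5 in siGLP (medians 0.061 and -0.028), and 0 passed (limma; 2 in each at an unadjusted p under 0.05). The share of all genes above control was 51.9% in siG9a and 50.6% in siGLP. At an unadjusted limma p under 0.05 stood 10.5% and 8.63% of all genes, and 0.0271% and 0.00451% passed. The ribosomal prolyl hydroxylase gene Ogfod1 stood at 0.40 in siG9a and 0.25 in siGLP, and the collagen prolyl hydroxylase gene P3h2 at -0.37 in siG9a and -0.45 in siGLP. Hif1an, which hydroxylates the hypoxia-inducible factor, stood at 0.39 in siG9a, and the RNA demethylase gene Fto at -0.18 in siGLP.

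Hypoxia-induced genes were listed because Kdm3a is one of their kind. Of 22 measured, 15 lay above control in siG9a (median 0.075) and 10 in siGLP (median -0.0049), where 51.9% and 50.6% of all genes did. None passed in either comparison (0 of 22; limma), with 5 higher at an unadjusted p under 0.05 in siG9a, where 5.95% of all genes were, and 1 lower in siGLP, where 4.13% were. Bnip3, a mitophagy receptor gene, stood at 0.53 in siG9a, the collagen lysyl hydroxylase gene Plod2 at 0.56 and the mitochondrial protein gene Higd1a at 0.37. In siGLP Ndrg1 stood at -0.38, Plod2 at 0.27 and the hexokinase gene Hk2 at -0.14. In siGLP minus siG9a 16 of 22 lay below and 6 above 0 (median -0.091), where 48.6% of all genes lay above, with Bnip3 at -0.47, Ndrg1 at -0.64 and Bhlhe40 at -0.42 (limma adjusted p from 0.0823 to 0.158). Other lists also lay mostly below 0 in that comparison, with 12 of 16 other 2-oxoglutarate dioxygenases (median -0.097), 11 of 14 other histone demethylases (median -0.08) and 11 of 18 enzymes of 2-oxoglutarate (median -0.051). Among the partners of Kdm1a 7 of 22 lay below 0 (median 0.07). The lists were chosen with earlier results of these data known.

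**Figure D4:**
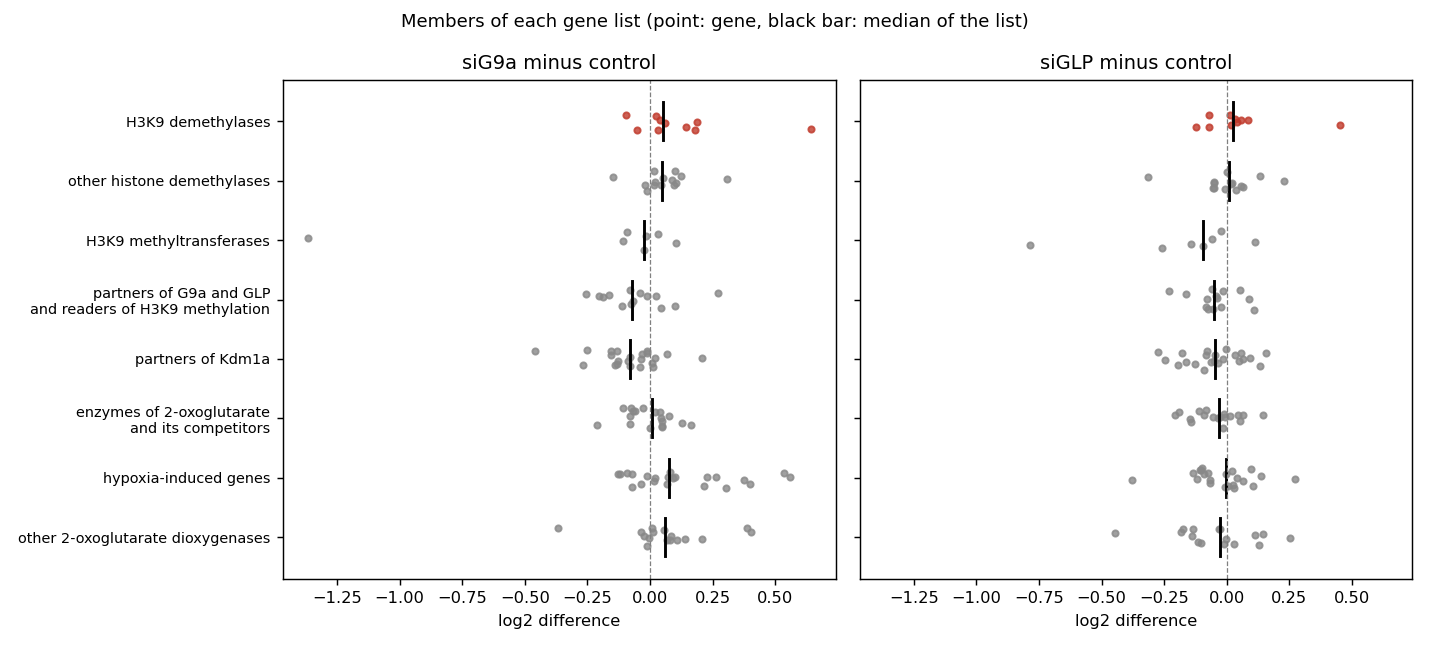
Log2 difference from control of each gene (points) in the H3K9 demethylases (red) and 7 other gene lists (grey), with the list median as a black bar, for siG9a on the left and siGLP on the right. The isolated points far left of 0 are the targeted genes Ehmt2 (-1.37, siG9a) and Ehmt1 (-0.79, siGLP), and Kdm7a is the isolated red point on the right side of each panel.

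The genes whose pattern was most like that of Kdm7a over the 7 arrays were sought among 1875 genes at or above the median level with a range over the arrays of at least 0.5, predicted and small RNA loci left out. They were the chaperone gene Dnajb9 (Pearson r = 0.978), the Polycomb methyltransferase gene Ezh1 (0.964), the phosphorylase kinase gene Phkg2 (0.963), the Tudor domain gene Tdrd7 (0.961) and the serpin gene Serpinb6b (0.960). Dnajb9 had 7.92, 7.55 and 7.79 in siG9a, 7.78 and 7.63 in siGLP, and 7.36 and 7.38 in control, so that the order of arrays within siG9a matched that of Kdm7a. Ezh1 had 6.77, 6.57 and 6.77 in siG9a, 6.74 and 6.53 in siGLP, and 6.21 and 6.24 in control. The most opposite were the mitotic regulator gene Rcc2 (-0.961), the glycoprotein gene Stc2 (-0.954) and Yae1d1 (-0.949). Of the 1875 genes, 55 had r over 0.9 and 9 had r under -0.9. The 7 arrays fall into groups and share their normalization, so r is a description with no test.

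**Figure D5:**
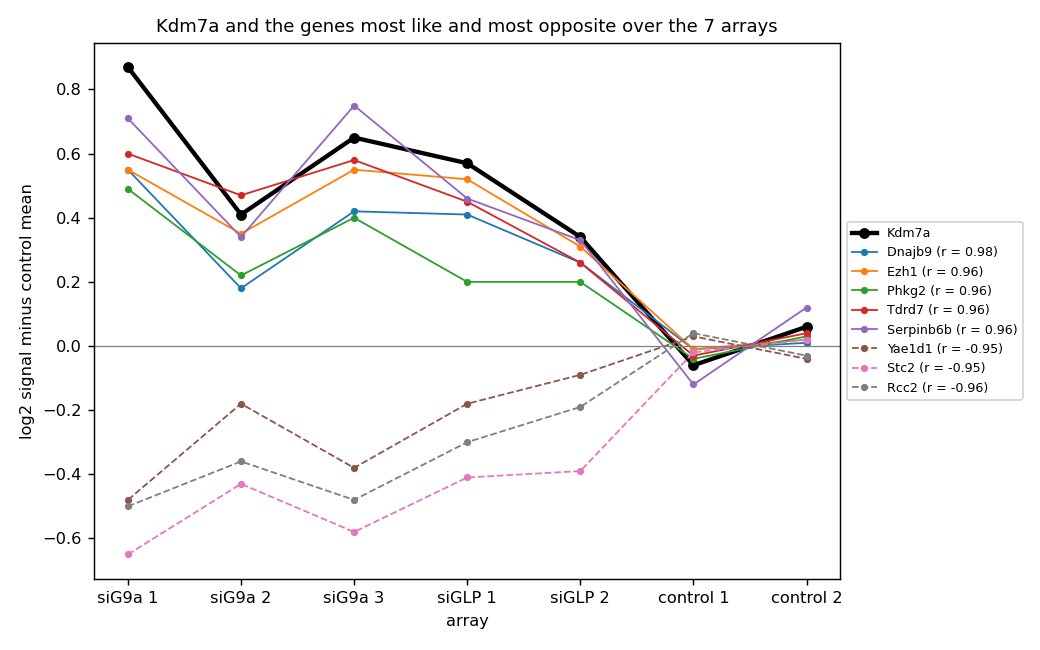
Log2 signal minus the control mean on each of the 7 arrays for Kdm7a (thick black), the 5 genes most like it (solid) and the 3 most opposite (dashed), with Pearson r over the arrays in the legend. The lines join arrays only to guide the eye, and siG9a 1 is the highest and control 1 the lowest array for Kdm7a.

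The same search among 1876 genes gave other neighbours for the next members. For Kdm3a they were the cyclin Y-like gene Ccnyl1 (r = 0.989), the zinc transporter gene Slc30a4 (0.969), Dera (0.961), Tpcn1 (0.954) and Cyb561a3 (0.953), and the most opposite were Whrn (-0.985), Ackr3 (-0.978) and Dynap (-0.978). For Phf8 they were the matrix protein gene Postn (0.989), the peptidase gene Lvrn (0.980), the mRNA decay factor gene Zfp36 (0.975), Zfp869 (0.975) and Tcp11l2 (0.960), and the most opposite were the satellite cell factor gene Pax7 (-0.953), the tRNA synthetase gene Wars (-0.930) and Shmt1 (-0.928). None of these genes passed in any comparison (limma, Benjamini-Hochberg).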

How the data were processed

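RNA of 7 C2C12 samples was measured on single-colour Affymetrix arrays. The deposited table holds log2 values per probe set, which the authors made with RMA and Partek per the submitters' processing notes (versions and order are not given there). RMA corrects background, normalizes quantiles and summarises probes, so differences are relative to the bulk of transcripts and compressed for dim probe sets. That the scale is log2 was taken from the range of the values.

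Of 33649 probe sets, 23521 had 1 symbol, 1814 several and 8314 none. Symbols were updated by gene number through RefSeq genes of GRCm38.p6, which matched 23328. The probe set with the highest mean was kept for the 1082 genes with several, which left 22180 genes, with no filter on level. Groups were compared with limma 3.58.1 in R 4.3.3 (lmFit and eBayes on the 3 groups together, with 4 residual degrees of freedom), two-sided, with Benjamini-Hochberg adjustment over all genes and a threshold of 0.05. The scripts were tested on simulated data. Members, lists and tests were chosen with earlier results of these data known.

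All members are named, as are, from each list, the genes that passed or up to 3 with the smallest p, and the nearest patterns of the 3 members with the smallest p. For siGLP minus siG9a, genes are named only from the hypoxia-induced list. Protein sequences were not used here. Alternatives were filters on level, normalization, variance model, samples in the fit, probe set rule, the replicate number as a block and each array left out.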

Additional observations from a re-analysis of the deposited data

How the results depend on the processing

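The count of members past the threshold was 0 in each of the 3 comparisons under each of the 17 alternatives (limma), and the smallest adjusted p of a member was 0.0755, for Kdm7a in siG9a versus control when only genes above the median level were tested. Kdm7a kept its direction under all of them, from 0.53 to 0.76 in siG9a versus control and from 0.33 to 0.57 in siGLP versus control.

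The number of all genes past the threshold moved far more. In siG9a versus control (6 genes) it was 30 with a filter at the 30th percentile of level, 148 with a filter at the median, 16 with quantile normalization, 100 with trended and robust variance moderation, and 0 without moderation, with only the 2 groups compared or with the replicate block. In siGLP versus control (1 gene) it was 21 with the median filter, 23 with trended and robust moderation, and 0 without moderation, with only the 2 groups or with the replicate block. In siGLP minus siG9a (52 genes) it was 171 with the 30th percentile filter, 350 with the median filter, 304 with trended and robust moderation, 3 without moderation, and 0 with only the 2 groups or with the replicate block. Fewer genes were tested under the filters, and fewer degrees of freedom remained in the last 3 settings. The replicate block also takes siG9a 3, the only array with that number, out of the comparisons. What moved the counts was not tested for any setting.

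The labels do not say that a replicate number marks a shared culture or day. Deviations from the group means correlated at 0.1025 to 0.1721 in 5 of the 6 same-numbered pairs and at 0.0047 in the other (siG9a 2 and control 2). Pairs with different numbers lay between -0.1721 (siG9a 1 and siGLP 2) and 0.1487 (siG9a 3 and control 2). The numbers were not taken as pairing the arrays, a choice that these values cannot settle. In groups of 2 the deviations mirror each other, so these pairs are not independent. With the replicate block the median difference of the members was 0.079 in siG9a versus control, against 0.050 without it. No other group has a replicate 3, so the block takes siG9a 3 out of the comparison. Leaving out siG9a 3 with no block gave the same 0.079. In siGLP versus control the median was 0.025 with and without the block. The shift in siG9a is therefore no measure of pairing by number.

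With 1 array left out, the members' median lay between 0.030 and 0.089 in siG9a versus control, -0.017 and 0.047 in siGLP versus control, and -0.069 and -0.038 in siGLP minus siG9a. All genes past the threshold numbered 0, 0 to 1, and 0 in these comparisons. Small differences changed sign: in siG9a versus control Jmjd1c (-0.052 to 0.132) and Kdm4b (-0.012 to 0.117), in siGLP versus control Kdm1a (-0.016 to 0.040), Kdm3a (-0.161 to 0.020), Jmjd1c (-0.050 to 0.134), Kdm4a (-0.015 to 0.050), Kdm4b (-0.156 to 0.012) and Kdm4c (-0.079 to 0.193), and in siGLP minus siG9a Jmjd1c (-0.051 to 0.055), Kdm4a (-0.047 to 0.017) and Kdm4c (-0.267 to 0.004). Kdm4a also changed sign with quantile normalization (-0.002 in siG9a versus control and 0.003 in siGLP minus siG9a) and with cyclic loess (0.008 in siGLP minus siG9a), and the cause was not tested.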

Other observations

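A second probe set carries the symbol of Kdm7a together with that of another gene, so it was not used for Kdm7a. Its log2 signal was 4.83, 5.21 and 4.93 in siG9a, 4.83 on both siGLP arrays, and 4.83 and 4.68 in control. The group mean was 4.99 ± 0.19 in siG9a (SD, n = 3) and 4.76 ± 0.11 in control (SD, n = 2). The highest siG9a array on it, siG9a 2, was the lowest of the siG9a arrays on the probe set that names Kdm7a alone.

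Fabp4, a fatty acid binding protein gene and adipocyte marker, differed between the siGLP arrays, at 6.32 and 4.40, against 3.48 and 3.18 in control. The other adipocyte markers stayed near control. Adipoq was at 3.20 and 3.04 in siGLP, against 2.95 and 3.09 in control. Plin1 was at 4.85 on both siGLP arrays, against 4.80 and 4.85 in control. The part of Fabp4 in the siGLP values of the demethylases was not tested.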
